A study of Mus musculus with 24 samples.

Results

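Injurious reperfusion was set against protective preconditioning in the mouse heart. The injurious protocol, I30R60, held the left coronary artery closed for a single period of 30 min and then let blood flow again for 60 min before the ventricle was taken. The protective protocol, IP0, consisted of 4 cycles, each with 5 min of occlusion and 5 min of reflow, and the ventricle was taken when the last cycle ended. The comparison used the 12 arrays of these protocols out of 24 in the series, 6 of I30R60 and 6 of IP0. Each protocol held 3 Per2-/- and 3 wildtype (wt) hearts. The paper states that preconditioning gave Per2-/- mice no protection in earlier studies, so protective names the protocol here and not its outcome in both genotypes. The 6 sham hearts, 3 of each genotype, served as the control level (untreated controls in the labels, sham operated in the methods), and the remaining 6 arrays (30 min of occlusion without reflow) entered only the fits over all arrays.

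All mice were males of the strain given as BL6C57 in the labels and C57BL6 in the methods, 12 to 16 weeks old according to the methods, anesthetised and catheterised, and the artery was occluded by a hanging weight. The Per2-/- line carries its mutation of the clock gene Per2 in the whole body, so no cell type of the heart is spared. Total RNA of the left ventricle, 1 heart per array, was hybridised to Affymetrix Mouse Gene 1.1 ST arrays, and every value below is a log2 RMA value (a normalised array intensity), so that a difference of 1 is a 2-fold change. Hearts of the I30R60 group had 30 min of ischemia in all and were sampled 90 min after its start, against 20 min of ischemia and 40 min for IP0 hearts. The kind of protocol, the amount of ischemia and the time since its start therefore cannot be told apart.

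Reperfusion after a long occlusion brings oxygen and leukocytes back to the muscle and is known for calcium overload, oxidant stress and inflammation of the vessel wall, whereas short cycles of occlusion protect the heart from a later infarct. Activated endothelium shows selectins first and then immunoglobulin-type adhesion molecules, which slow and hold neutrophils, and cytokines of the IL-6 family act through STAT3. MicroRNAs are cut from longer primary transcripts, and several are made almost only in muscle. The labelling of these arrays starts from total RNA and is not designed for RNAs as short as a mature microRNA, so the value of a microRNA gene is read here as the level of its longer transcripts.

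The largest falls of the comparison belonged to microRNA genes of heart muscle, and 3 neighbouring microRNA genes rose. For each of 6 of these genes a mature sequence is shown, from the arm given in its name (5p or 3p). The other arm is not shown, and the arrays do not tell which arm is used. The seeds printed for Mir1a-1 and Mir23b are therefore those of their 5p arms alone. They are RefSeq sequences on GRCm38.p6 and run 5′ to 3′, and the capitals mark the seed, bases 2 to 8, with which a microRNA reads its targets. The genes Mir1a-1 (chromosome 2), Mir208a (chromosome 14) and Mir499 (chromosome 2) were lower in I30R60 hearts, and Mir23b, Mir27b and Mir24-1 (all on chromosome 13) were higher.
miR-1a-1-5p: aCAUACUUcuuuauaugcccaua
miR-208a-3p: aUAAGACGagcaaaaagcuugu
miR-499-5p: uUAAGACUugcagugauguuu
miR-23b-5p: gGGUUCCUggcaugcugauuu
miR-27b-3p: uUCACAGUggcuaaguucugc
miR-24-3p: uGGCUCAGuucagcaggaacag
The seeds of miR-208a-3p and miR-499-5p, UAAGACG and UAAGACU, are alike up to their last base, and the other seeds differ from each other. In the annotation Mir208a lies inside Myh6 and Mir499 inside Myh7b, both genes of myosin heavy chains, Mir1a-1 and Mir133a-2 are neighbours, and Mir23b, Mir27b and Mir24-1 lie together inside Aopep.

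The 12 arrays were alike as a whole. Their medians lay between 4.39 and 4.48 and their interquartile ranges between 3.95 and 4.11, and arrays of a group correlated at 0.981 or more. Tnni3, the troponin I of heart muscle, measured 13.05 to 13.24. In 1 of the 12 arrays, Per2-/- IP0 replicate 3, the atrial light chains Myl7 and Myl4 stood at 9.12 and 11.24, whereas the I30R60 arrays reached at most 3.52 and 7.03. Sham arrays carried atrial signal as well. Myl7 and Myl4 were 11.21 and 12.72 in Per2-/- sham replicate 3, 8.24 and 10.73 in wt sham replicate 1 and 5.22 and 7.88 in wt sham replicate 2. The other sham arrays lay at 3.73 and 7.06 or lower. The sham level used below thus includes hearts with atrial signal. Per2 itself did not separate the genotypes, at 5.58 to 6.25 in Per2-/- against 5.51 to 6.71 in wt I30R60 hearts and at 5.19 to 5.65 in Per2-/- against 4.66 to 5.36 in wt IP0 hearts. Where its probe set lies relative to the deleted part is not given in the sources used here, so this level does not check the genotype labels.

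Of 18820 genes, 528 were higher in I30R60 than in IP0 hearts (2.81%) and 397 were lower (2.11%) at an adjusted p under 0.05 (limma, genotype as a covariate, Benjamini-Hochberg over all genes). Counts of list members below are to be read against these shares. Differences of at least 2-fold were one-sided, with 73 genes higher (0.388%) and 8 lower (0.0425%). Genes that passed the test and whose 6 I30R60 arrays did not overlap the 6 IP0 arrays numbered 316 higher (1.68%) and 218 lower (1.16%). Most passing differences were small, since 644 of the 925 (4.91%) were under 1.5-fold and their median size was 0.45, and the median over all genes was −0.02. Without Per2-/- IP0 replicate 2 the counts were 360 higher and 186 lower. The split between directions rested on the scaling: 57.1% of the passing genes were higher with the deposited values, 37.1% with each array centred on its median and 57.4% after quantile normalisation. Against sham, 807 genes were higher (4.29%) and 951 lower (5.05%) in I30R60 hearts, whereas 192 were higher (1.02%) and 174 lower (0.925%) in IP0 hearts. These comparisons share the sham arrays, so their values are only set side by side below.

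Heart muscle microRNA genes were the group that fell most. Of 8 measured, 6 were lower in I30R60 than in IP0 hearts, none of them overlapping. Over all genes 2.11% were lower, and 1.16% were lower without overlap. The median difference of the 8 was −1.58 against −0.02 over all genes. The 6 cannot be counted as independent genes. In the annotation Mir1a-1 and Mir133a-2 lie together inside Mir1a-1hg, and Mir1a-2 and Mir133a-1 lie together inside Mir133a-1hg. Mir1a-2, a gene of miR-1 that restrains growth and ion channel genes in muscle, measured 1.84, 2.16 and 2.31 (lowest, median and highest array) in I30R60 hearts, against 4.68, 4.88 and 5.29 in IP0 hearts and 2.39, 2.73 and 3.60 in sham hearts. The I30R60 arrays lay wholly below the sham arrays, and the IP0 arrays wholly above them. The difference of −2.79 ± 0.12 (SE) had the lowest adjusted p of all genes, 1.37e-07, and it was −2.93 in Per2-/- and −2.66 in wt hearts. Mir1a-1, the other gene of miR-1, measured 1.82, 2.21 and 2.56 in I30R60 hearts, against 3.49, 4.09 and 5.29 in IP0 hearts and 2.02, 2.37 and 2.79 in sham hearts. Here the I30R60 arrays overlapped sham and the IP0 arrays did not, with a difference between the protocols of −2.01 ± 0.22 (adjusted p = 0.000339). The I30R60 levels of both genes lie well under the array medians, where this kind of array compresses differences.

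The genes of miR-133a, which is transcribed with miR-1, moved alike. Mir133a-1 measured 4.03, 4.50 and 4.78 in I30R60 hearts, against 5.83, 6.22 and 6.42 in IP0 hearts and 4.79, 5.38 and 5.87 in sham hearts (difference −1.76 ± 0.12, adjusted p = 1.58e-05). Mir133a-2 measured 2.84, 3.17 and 3.71 in I30R60 hearts, against 4.45, 4.91 and 5.18 in IP0 hearts and 3.66, 3.97 and 4.26 in sham hearts (difference −1.62 ± 0.18, adjusted p = 0.000388). For both genes the I30R60 and IP0 arrays lay far apart, with the sham arrays between them apart from slight overlaps. Against sham, Mir133a-1 was −0.96 in I30R60 hearts (adjusted p = 0.00046) and +0.79 in IP0 hearts (adjusted p = 0.013), and Mir133a-2 was −0.72 (adjusted p = 0.024) and +0.90 (adjusted p = 0.021).

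Mir208a and Mir499, whose microRNAs share most of their seed as printed above and which tune myosin genes of slow and fast type, were also lower. Mir208a measured 5.21, 5.84 and 6.49 in I30R60 hearts, against 7.03, 7.43 and 7.63 in IP0 hearts and 6.25, 6.43 and 7.15 in sham hearts. The protocols did not overlap (difference −1.54 ± 0.20, adjusted p = 0.000946), and within I30R60 the 3 Per2-/- arrays, 5.21 to 5.46, lay below the 3 wt arrays, 6.23 to 6.49. Myh6, the gene around Mir208a, was not among the genes measured. Mir499 measured 2.38, 2.72 and 2.87 in I30R60 hearts, against 3.37, 3.61 and 4.38 in IP0 hearts and 2.91, 3.05 and 3.52 in sham hearts (difference −1.04 ± 0.16, adjusted p = 0.00266). Myh7b, the gene around Mir499, was looked up after these values were seen and measured 7.47, 7.62 and 7.88 in I30R60 hearts, against 8.03, 8.20 and 8.44 in IP0 hearts and 7.30, 7.59 and 7.83 in sham hearts. It was lower in I30R60 hearts by a difference of −0.59 ± 0.08 (adjusted p = 0.00149), and in contrast to Mir499 its I30R60 arrays lay at the sham level. The other measured members, Mir133b (−0.09) and Mir206 (+0.10), did not pass the test (adjusted p = 0.605 and 0.578).

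**Figure D1:**
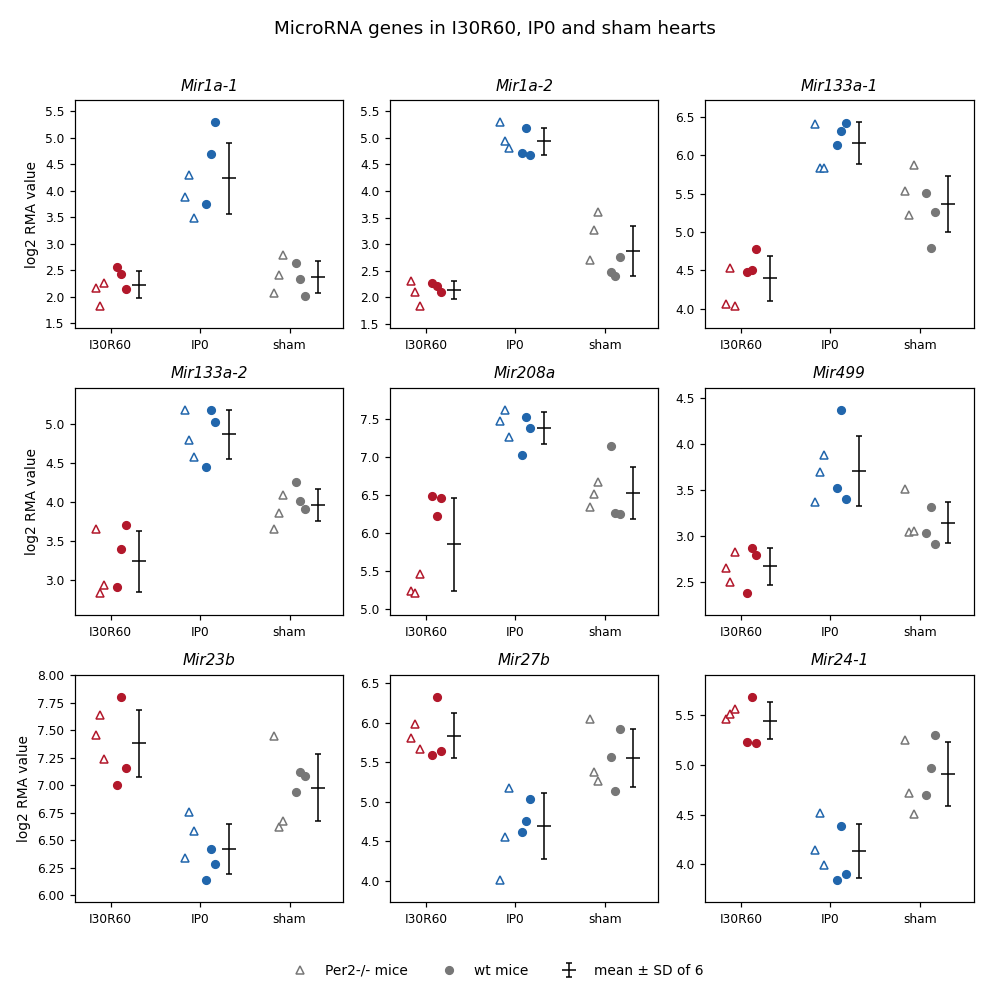
Log2 RMA values of 9 microRNA genes in each I30R60, IP0 and sham array (open triangles, Per2-/- mice; filled circles, wt mice; bars, mean ± SD of 6 arrays). The I30R60 arrays sit below the IP0 arrays in the 6 muscle genes and above them in Mir23b, Mir27b and Mir24-1, with no overlap in any panel.

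Mir23b, Mir27b and Mir24-1, which lie together on chromosome 13 and whose microRNAs are known from endothelium and other non-muscle cells, were higher in I30R60 hearts. Mir24-1 measured 5.22, 5.49 and 5.69 in I30R60 hearts, against 3.84, 4.07 and 4.52 in IP0 hearts and 4.50, 4.84 and 5.30 in sham hearts (difference +1.31 ± 0.12, adjusted p = 7.75e-05). Mir27b measured 5.59, 5.74 and 6.33 in I30R60 hearts, against 4.01, 4.68 and 5.18 in IP0 hearts and 5.13, 5.47 and 6.04 in sham hearts (difference +1.14 ± 0.18, adjusted p = 0.00356). Mir23b measured 7.00, 7.35 and 7.81 in I30R60 hearts, against 6.13, 6.38 and 6.76 in IP0 hearts and 6.62, 7.01 and 7.44 in sham hearts (difference +0.96 ± 0.13, adjusted p = 0.0013). In all of them the I30R60 arrays lay above the IP0 arrays without overlap, while they overlapped the sham arrays. Of these values against sham, 1 passed the test, Mir24-1 in IP0 hearts at −0.78 (adjusted p = 0.049). The call of Mir27b was lost when the group means of all 24 arrays were fitted (adjusted p = 0.081). Aopep, the gene around them, differed by +0.14 (adjusted p = 0.425). Of all 306 microRNA genes tested, 5 were higher (1.6%) and 7 lower (2.3%), the others being Mir505, Mir532 and Mir701. Over all genes the shares were 2.81% and 2.11%, so microRNA genes as a class did not stand out by count.

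Of 16 endothelial adhesion molecules measured, 7 were higher in I30R60 than in IP0 hearts and none lower, with a median of +0.26, and the selectins and Icam1 rose most. Selp encodes P-selectin, on which neutrophils begin to roll, and it had the largest rise of all genes. It measured 6.98, 7.19 and 8.08 in I30R60 hearts, against 3.69, 4.12 and 5.11 in IP0 hearts and 2.90, 3.45 and 3.78 in sham hearts. The I30R60 arrays stood clear of both other groups, by +3.09 ± 0.24 over IP0 (8.5-fold, adjusted p = 3.52e-05), and the IP0 level was not separated from sham by the test (+0.88, adjusted p = 0.19). Sele, E-selectin, measured 7.03, 7.31 and 7.95 in I30R60 hearts, against 5.03, 5.66 and 5.94 in IP0 hearts and 4.31, 4.66 and 5.19 in sham hearts (difference +1.84 ± 0.19, adjusted p = 0.000174). Icam1, which holds leukocytes firmly through integrins, measured 7.74, 8.48 and 9.50 in I30R60 hearts, against 6.31, 6.69 and 7.31 in IP0 hearts and 6.11, 6.34 and 6.52 in sham hearts (difference +1.80 ± 0.25, adjusted p = 0.0015). Neither gene overlapped between the protocols. Vcam1, the ligand of monocyte integrins, differed by +0.89 ± 0.23 with overlapping arrays (adjusted p = 0.0428), and its call was lost without any of 10 single arrays (adjusted p up to 0.0905). The other members that rose were Procr and Thbd, receptors that curb clotting, at +0.84 and +0.69, and Cd34 at +0.31.

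Chemokines that draw neutrophils and T cells rose in part. Of 16 CXC chemokines and receptors 4 were higher and none lower (median +0.15), and of 18 CC members 3 were higher and none lower (median +0.33). Cxcl10, a chemokine induced by interferon and NF-kB, measured 4.81, 6.14 and 7.51 in I30R60 hearts, against 3.65, 3.95 and 4.12 in IP0 hearts and 3.49, 3.88 and 4.28 in sham hearts. The IP0 arrays were spread like the sham arrays and the I30R60 arrays lay above both (difference from IP0 +2.14 ± 0.30, adjusted p = 0.00149). Cxcl1, which calls neutrophils, measured 7.96, 8.22 and 8.60 in I30R60 hearts, against 6.74, 7.13 and 7.57 in IP0 hearts and 5.42, 6.35 and 6.78 in sham hearts (difference +1.08 ± 0.14, adjusted p = 0.00082). Cxcl5 (+1.09, adjusted p = 0.0158, and 0.051 without moderated variances) and Cxcl9 (+0.88, adjusted p = 0.00322) were higher as well, Cxcl9 with a slight overlap. Among the CC chemokines Ccl19 differed by +0.64 (adjusted p = 0.000287), and its 5 probe sets gave +0.61 to +0.64. The calls of Ccl3 (+0.98, adjusted p = 0.0229) and Ccl17 (+0.74, adjusted p = 0.0491) lay near the threshold: Ccl3 was lost without wt I30R60 replicate 3, wt IP0 replicate 1 or Per2-/- IP0 replicate 2 (adjusted p up to 0.0537), and Ccl17 without any of 9 single arrays (adjusted p up to 0.107). Mean levels of Cxcl5 (4.15 in I30R60 and 3.06 in IP0 hearts) and Ccl17 (4.30 and 3.56) lay under the array medians.

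Transcripts known from neutrophils were higher in I30R60 hearts, 6 of 18 markers measured and none lower, with a median of +0.68. Lcn2, the iron-binding lipocalin of neutrophil granules that stressed tissue also makes, measured 7.80, 8.51 and 9.32 in I30R60 hearts, against 5.50, 6.06 and 6.36 in IP0 hearts and 4.71, 6.15 and 6.32 in sham hearts (difference +2.56 ± 0.24, adjusted p = 7.75e-05). The IP0 arrays overlapped the sham arrays, and no I30R60 array reached down to either. Clec4e, a receptor for products of dead cells, measured 4.97, 5.77 and 6.34 in I30R60 hearts, against 3.02, 3.88 and 4.29 in IP0 hearts and 2.85, 3.51 and 3.97 in sham hearts (difference +1.90 ± 0.23, adjusted p = 0.000708). Mmp8, the neutrophil collagenase, measured 4.32, 4.81 and 5.96 in I30R60 hearts, against 2.85, 3.36 and 3.81 in IP0 hearts and 2.38, 3.01 and 3.23 in sham hearts (difference +1.69 ± 0.28, adjusted p = 0.00504). Both were without overlap. S100a8 (+1.07), Trem1 (+0.89) and Retnlg (+1.22, adjusted p = 0.0299) were higher too, Retnlg with overlap and lost without any of 6 single arrays (adjusted p up to 0.0689). The mean level of the 18 markers was 4.23 to 4.94 in I30R60 hearts, against 3.66 to 3.91 in IP0 hearts and 3.24 to 3.70 in sham hearts, and 10, 14 and 16 of the markers lay under the array median. The granule genes Ngp, Camp, Ltf, Elane and Mpo were under it in all 3 groups. In tissue RNA more neutrophils and more RNA per neutrophil cannot be told apart.

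In the IL-6 family and its signaling chain 9 of 19 members were higher and none lower (median +0.37). Il6, the cytokine itself, measured 7.39, 7.72 and 8.18 in I30R60 hearts, against 5.02, 5.70 and 6.10 in IP0 hearts and 2.28, 3.73 and 4.56 in sham hearts. The 3 groups formed steps without overlap, with a difference between the protocols of +2.13 ± 0.20 (adjusted p = 7.75e-05). Socs3, the feedback inhibitor that STAT3 induces, measured 8.74, 9.03 and 9.36 in I30R60 hearts, against 6.12, 6.69 and 7.29 in IP0 hearts and 4.62, 5.05 and 6.18 in sham hearts (difference +2.35 ± 0.18, adjusted p = 3.52e-05). A further probe set of Socs3 gave +1.36. Osmr, the receptor of oncostatin M, measured 8.69, 9.01 and 9.29 in I30R60 hearts, against 7.43, 7.81 and 8.03 in IP0 hearts and 7.64, 7.81 and 8.15 in sham hearts (difference +1.22 ± 0.12, adjusted p = 0.000119). Unlike Il6 and Socs3, Osmr stood at the sham level in IP0 hearts. Further down the chain the kinases Pim1 (+0.75), Jak2 (+0.56) and Pim3 (+0.31), the inhibitor Socs2 (+0.54) and Stat3 (+0.53) were higher.

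Subunits and feedback regulators of NF-kB, the factor that drives many of these genes, were higher in 7 of 17 cases and lower in none (median +0.41). Bcl3, a nuclear partner of NF-kB that is also a STAT3 target and stands in both lists, measured 7.47, 7.88 and 8.47 in I30R60 hearts, against 5.72, 6.03 and 6.40 in IP0 hearts and 5.45, 5.76 and 6.16 in sham hearts (difference +1.80 ± 0.14, adjusted p = 3.52e-05). Birc3, a ubiquitin ligase of the TNF receptor complex, measured 7.10, 7.37 and 7.72 in I30R60 hearts, against 6.13, 6.27 and 6.37 in IP0 hearts and 5.84, 6.12 and 6.25 in sham hearts (difference +1.13 ± 0.09, adjusted p = 3.52e-05). In both genes the I30R60 arrays stood apart while the IP0 arrays overlapped sham. Tnfaip3, the A20 enzyme that shuts the pathway off, differed by +1.13 ± 0.21 (adjusted p = 0.0103) and the inhibitor Nfkbie by +0.94 ± 0.18 (adjusted p = 0.0125). Zc3h12a (+0.71), the subunit Rel (+0.68) and Nfkbiz (+0.61) completed the members that rose.

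The bases before the start of Il6 and of Cxcl10 are shown because NF-kB sites are well known in both promoters and both genes are among the 15 largest rises. They are RefSeq promoters on GRCm38.p6, 5′ to 3′ on the strand of the gene, and end at the base before the start. Il6 is at chr5:30012994-30013113 on the plus strand and Cxcl10 at chr5:92348890-92349119 on the minus strand, and capitals mark matches to the kB consensus, searched on both strands.
Il6: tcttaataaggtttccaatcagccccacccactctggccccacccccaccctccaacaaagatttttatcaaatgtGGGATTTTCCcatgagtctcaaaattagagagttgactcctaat
Cxcl10: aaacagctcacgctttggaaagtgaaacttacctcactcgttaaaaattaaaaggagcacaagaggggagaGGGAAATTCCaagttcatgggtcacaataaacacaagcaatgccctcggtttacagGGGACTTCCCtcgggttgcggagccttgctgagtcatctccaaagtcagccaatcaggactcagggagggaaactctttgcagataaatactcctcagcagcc
Over the 250 bases before the start, 4 of the 13 leading genes with a promoter in the reference held such a match. They were Il6, Cxcl10, Fosb and Sbno2. Of all 32851 promoters, counted singly and not by gene, 3.9% matched. Because the first count is of genes and the second of promoters, the shares cannot be compared and show no enrichment. A second motif, also searched, was found in 1 of the 13 genes (Cxcl10) and in 2.98% of the promoters. A match is a description of the letters and was not tested against binding.

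**Figure D2:**
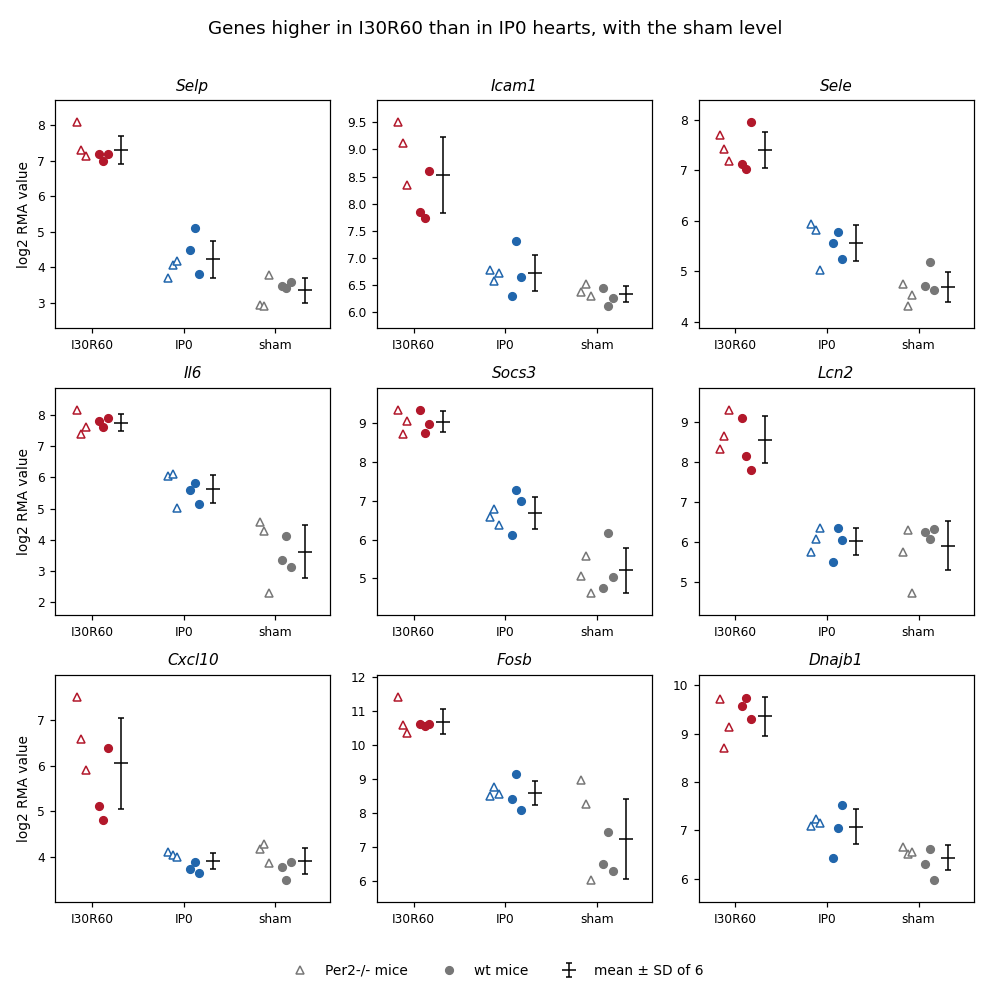
Log2 RMA values of 9 genes with large rises in each I30R60, IP0 and sham array (open triangles, Per2-/- mice; filled circles, wt mice; bars, mean ± SD of 6 arrays). No I30R60 array overlaps an IP0 array in any panel, and Il6 and Socs3 show 3 separate steps or nearly so, while Lcn2 and Cxcl10 lie at the sham level in IP0 hearts.

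Of 19 genes of the TNF, IL-1 and colony stimulating factor systems, 7 were higher and none lower, and all 19 differences were positive (median +0.56). Il4ra, the receptor chain of IL-4 and IL-13, measured 8.12, 8.63 and 8.98 in I30R60 hearts, against 7.34, 7.54 and 7.72 in IP0 hearts and 6.80, 7.32 and 7.41 in sham hearts (difference +1.07 ± 0.15, adjusted p = 0.0013). Tnfsf9, a ligand that costimulates T cells, differed by +1.14 ± 0.23 with overlap (adjusted p = 0.0137). Tnfrsf12a, the TWEAK receptor, differed by +0.86 ± 0.17 (adjusted p = 0.0124), and Il1rn, the natural blocker of the IL-1 receptor, by +0.66 ± 0.11 (adjusted p = 0.00602). The receptors Il1r1 (+0.56) and Tnfrsf1a (+0.35) and the growth factor Csf3 (+0.65) also rose. The mean levels of Csf3, 3.50 in I30R60 and 2.85 in IP0 hearts, lay under the array medians. The cytokines Tnf and Il1b did not pass the test. Tnf measured 5.86, 6.42 and 7.49 in I30R60 hearts, against 5.37, 5.76 and 6.27 in IP0 hearts and 3.89, 4.77 and 5.32 in sham hearts (difference +0.71, 95% interval 0.17 to 1.25, adjusted p = 0.13). Il1b differed by +0.71 (95% interval 0.22 to 1.20, adjusted p = 0.0995), and it passed when only genes with a mean of at least 5 were tested (adjusted p = 0.0499).

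Genes of the interferon response were higher in 9 of 19 cases and lower in none (median +0.46). The median of the list was +0.13 in I30R60 and −0.22 in IP0 hearts relative to sham. Irf1, a factor that interferon and NF-kB induce, measured 7.86, 8.69 and 9.53 in I30R60 hearts, against 6.98, 7.40 and 7.47 in IP0 hearts and 6.97, 7.14 and 7.28 in sham hearts (difference +1.31 ± 0.20, adjusted p = 0.00254). A weaker probe set of Irf1 gave +0.14. Ifit1, which binds foreign RNA, measured 5.91, 6.50 and 8.25 in I30R60 hearts, against 5.23, 5.64 and 5.90 in IP0 hearts and 5.99, 6.27 and 6.38 in sham hearts (difference +1.21 ± 0.26, adjusted p = 0.0212). Here the IP0 arrays lay below the sham arrays and the I30R60 arrays ran across and above them. Its call was lost without Per2-/- IP0 replicate 2 (adjusted p = 0.0515). Irf9, part of the factor that type I interferon activates, differed by +0.73 ± 0.11 (adjusted p = 0.00217). Mx2, an antiviral GTPase, differed by +1.12 ± 0.26 (adjusted p = 0.0298) and was lost without any of 5 single arrays (adjusted p up to 0.0705). Oasl1, Irf7, Stat2, Oasl2 and Gbp3 rose by +0.46 to +0.65.

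**Figure D3:**
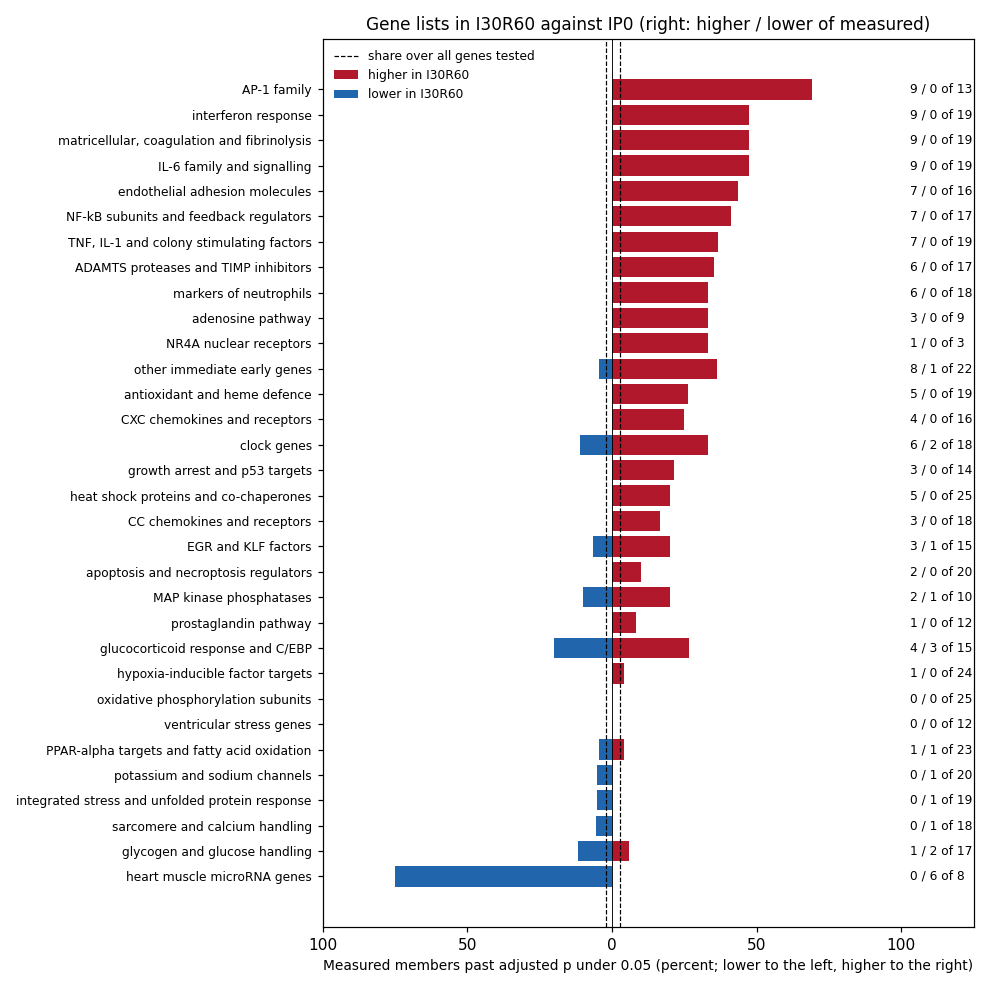
Percent of the measured members of each gene list that were higher (to the right) or lower (to the left) in I30R60 than in IP0 hearts at an adjusted p under 0.05, with the counts at the right edge. Dashed lines mark the shares over all genes, 2.81% higher and 2.11% lower; AP-1 has 9 of 13 members higher and heart muscle microRNA genes 6 of 8 lower.

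The AP-1 family, the dimers of FOS, JUN, ATF and MAF proteins that respond within minutes to stress, had the largest share of members that rose, 9 of 13, with none lower and a median of +0.65. Relative to sham the median was +1.37 in I30R60 and +0.54 in IP0 hearts. Fosb measured 10.35, 10.58 and 11.41 in I30R60 hearts, against 8.10, 8.53 and 9.15 in IP0 hearts and 6.03, 6.96 and 8.96 in sham hearts (difference +2.10 ± 0.19, adjusted p = 7.58e-05). Atf3, which dampens inflammatory genes, measured 11.31, 11.64 and 12.05 in I30R60 hearts, against 10.26, 10.67 and 10.93 in IP0 hearts and 6.80, 7.97 and 8.45 in sham hearts (difference +1.04 ± 0.14, adjusted p = 0.00111). Fos measured 9.45, 9.96 and 10.24 in I30R60 hearts, against 8.70, 8.91 and 9.27 in IP0 hearts and 5.20, 7.24 and 8.19 in sham hearts (difference +0.89 ± 0.14, adjusted p = 0.00324). In all 3 genes the lowest I30R60 array lay above the highest IP0 array. The IP0 arrays of Atf3 and Fos lay above all sham arrays, whereas those of Fosb overlapped sham. Maff, a small MAF protein, differed by +1.07 ± 0.14 (adjusted p = 0.00111), and Jun (+0.68), Fosl2 (+0.65), Junb (+0.65), Jund (+0.62) and Mafk (+0.49) were higher too.

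Other early response genes were divided. Of 22 on the list, 8 were higher and 1 lower (median +0.25). Myc, the growth factor-induced transcription factor, measured 8.71, 8.83 and 9.08 in I30R60 hearts, against 7.38, 7.58 and 8.13 in IP0 hearts and 5.76, 6.84 and 7.37 in sham hearts (difference +1.23 ± 0.11, adjusted p = 7.75e-05). Ier3, which protects from TNF-induced death, measured 6.61, 6.82 and 6.91 in I30R60 hearts, against 5.72, 5.88 and 5.90 in IP0 hearts and 5.06, 5.22 and 5.58 in sham hearts (difference +0.95 ± 0.06, adjusted p = 1.58e-05). Both formed steps from I30R60 over IP0 to sham. Arc differed by +1.12 ± 0.19 (adjusted p = 0.00575) and Rrad, a small GTPase that restrains the calcium channel of heart muscle, by +0.96 ± 0.16 (adjusted p = 0.00414). The member that fell was Errfi1, an inhibitor of the EGF receptor, at −0.61 (adjusted p = 0.00149). The growth arrest genes Gadd45g (+0.79, adjusted p = 0.000766) and Gadd45a (+0.77, adjusted p = 0.00497) rose, and Ppp1r15a, which lifts the block on translation after stress, differed by +0.39 ± 0.10 (adjusted p = 0.0412). The remaining 11 of those 14 genes did not pass, and Ppp1r15a was lost without any of 10 single arrays (adjusted p up to 0.0843).

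The NR4A receptors, orphan nuclear receptors of the early response, were above sham in both protocols, with medians of +1.01 in I30R60 and +1.15 in IP0 hearts, and their protocols overlapped. Nr4a1 measured 10.10, 10.37 and 10.78 in I30R60 hearts, against 10.60, 10.73 and 11.004 in IP0 hearts and 8.76, 9.62 and 10.26 in sham hearts. The difference between the protocols of −0.30 (95% interval −0.56 to −0.04) did not pass the test (adjusted p = 0.191). Nr4a2 measured 6.63, 7.13 and 7.66 in I30R60 hearts, against 6.74, 7.15 and 7.66 in IP0 hearts and 5.06, 6.26 and 6.99 in sham hearts, a difference of −0.05 (95% interval −0.37 to 0.27, adjusted p = 0.903). Nr4a3 was higher by +0.34 ± 0.09 (adjusted p = 0.0405), a call that was lost without any of 9 single arrays (adjusted p up to 0.0911). Of 15 EGR and KLF factors, 3 were higher and 1 lower (median +0.12). Egr3, which is induced and lost quickly after a stimulus, measured 5.77, 6.35 and 6.59 in I30R60 hearts, against 6.69, 7.00 and 7.07 in IP0 hearts and 5.55, 6.64 and 7.55 in sham hearts (difference −0.64 ± 0.10, adjusted p = 0.00411). The wide sham range spanned both protocols. Klf10 was higher by +0.76 ± 0.15 (adjusted p = 0.0147), and the calls of Klf4 (+0.49) and Klf6 (+0.30) were lost without any of 10 and 8 single arrays (adjusted p up to 0.0923 and 0.0762).

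Some genes of the stress and feedback response stood higher after preconditioning. Ddit4, the hypoxia- and glucocorticoid-induced brake on mTOR, measured 7.71, 8.82 and 9.40 in I30R60 hearts, against 9.59, 9.73 and 9.90 in IP0 hearts and 7.70, 8.46 and 9.03 in sham hearts (difference −0.99 ± 0.21, adjusted p = 0.0184). The call was lost in a linear model without moderated variances (adjusted p = 0.0554). The IP0 arrays stood above all others, and against sham Ddit4 was +0.40 in I30R60 hearts (adjusted p = 0.37) and +1.40 in IP0 hearts (adjusted p = 0.0041). Rgs1, which ends signals of chemokine receptors, measured 3.52, 3.57 and 3.73 in I30R60 hearts, against 3.96, 4.40 and 4.58 in IP0 hearts and 3.14, 3.26 and 3.59 in sham hearts (difference −0.72 ± 0.10, adjusted p = 0.00111). These Rgs1 levels lie under or near the array median. Of 10 MAP kinase phosphatases, which end kinase signals, Dusp5 (+0.69, adjusted p = 0.0152) and Dusp16 (+0.25, adjusted p = 0.0467) were higher and Dusp1 lower (−0.38 ± 0.10, adjusted p = 0.0439). The calls of Dusp16 and Dusp1 were lost without any of 11 and 9 single arrays (adjusted p up to 0.109 and 0.0961). Ddit4 was the sole member to pass among 19 genes of the integrated stress and unfolded protein responses (median −0.05). That is 5.3% lower, against 2.11% over all genes.

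**Figure D4:**
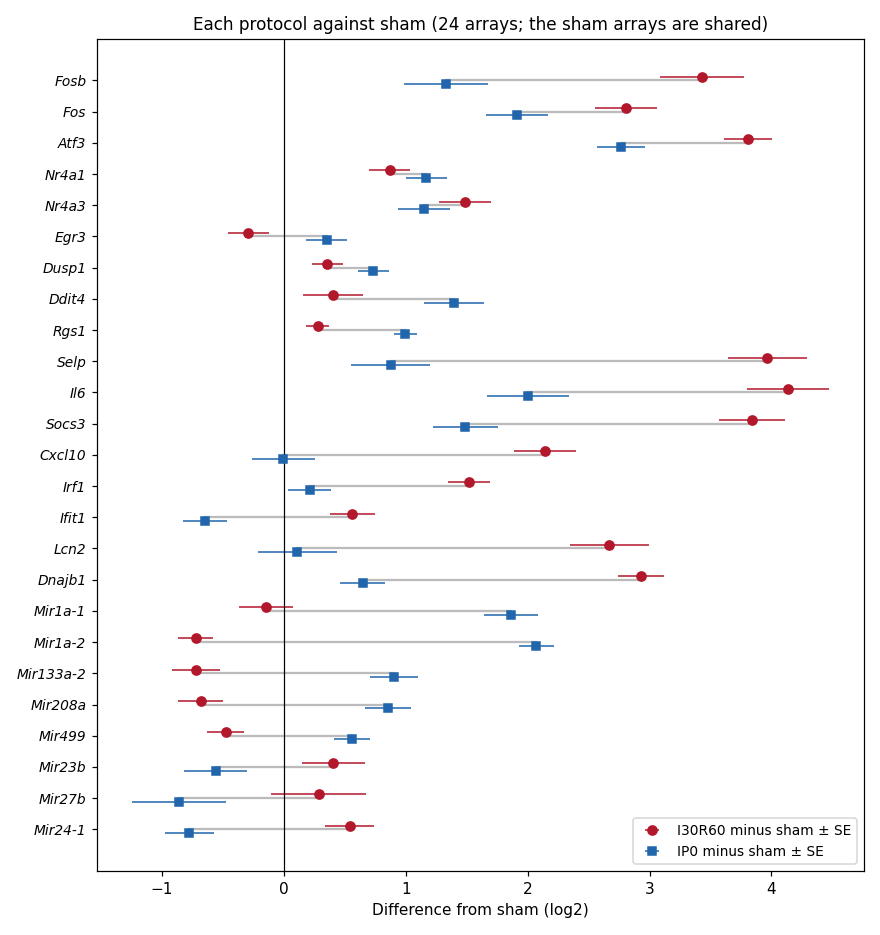
Difference from sham on the log2 scale (± SE, 24-array fit) of 25 named genes in I30R60 hearts (red circles) and IP0 hearts (blue squares); the sham arrays are shared. Atf3, Fos and Il6 lie right of 0 in both protocols and further right in I30R60, Ddit4 and Rgs1 lie further right in IP0, and the microRNA genes Mir1a-2, Mir133a-2, Mir208a and Mir499 lie on opposite sides of 0.

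A small group of heat shock genes rose. Of 25 measured, 5 were higher and none lower, and the list median was +0.03. Hspa1a, Hspa1b, Hsp90ab1 and Cryab were among the members not measured, and the co-chaperone Bag3 did not pass (+0.03, adjusted p = 0.854). Dnajb1, the co-chaperone that guides HSP70 to aggregates, measured 8.70, 9.44 and 9.74 in I30R60 hearts, against 6.42, 7.12 and 7.53 in IP0 hearts and 5.97, 6.53 and 6.65 in sham hearts (difference +2.28 ± 0.20, adjusted p = 6.49e-05). The I30R60 arrays lay more than 1 unit above every other array. Hsph1, which recharges HSP70, was 2.14-fold higher with overlap (adjusted p = 0.00256). Dnaja1 differed by +0.89 ± 0.14 (adjusted p = 0.00284), Hsp90aa1, the inducible HSP90, by +0.77 ± 0.15 with overlap (adjusted p = 0.011) and the small heat shock protein Hspb1 by +0.53. The constitutive Hspa8 measured 12.62, 12.67 and 12.74 in I30R60 hearts, against 12.51, 12.56 and 12.71 in IP0 hearts and 12.39, 12.49 and 12.61 in sham hearts. It did not pass (+0.09, 95% interval −0.04 to 0.21, adjusted p = 0.448).

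Genes that act on the matrix and on clotting were higher in part. Of 17 ADAMTS proteases and their relatives 6 were higher and none lower (median +0.17), and of 19 matricellular, coagulation and fibrinolysis genes 9 were higher and none lower (median +0.29). Adamts4, which cuts proteoglycans, measured 7.23, 7.66 and 8.35 in I30R60 hearts, against 4.83, 5.68 and 6.30 in IP0 hearts and 3.35, 4.42 and 4.52 in sham hearts, 3 groups without overlap (difference +2.09 ± 0.25, adjusted p = 0.000669). Timp1, an inhibitor of metalloproteases, measured 6.49, 7.07 and 7.41 in I30R60 hearts, against 5.18, 5.71 and 6.02 in IP0 hearts and 5.37, 5.58 and 6.27 in sham hearts (difference +1.38 ± 0.18, adjusted p = 0.00106). In IP0 hearts Timp1 overlapped sham, in I30R60 hearts it did not. Adamts9 (+0.96, adjusted p = 0.000791, with +0.67 to +0.96 over its 6 probe sets), Adamts1 (+0.92) and Timp3 (+0.57) were higher, as was Mmp8, given above. Has1, which makes hyaluronan, measured 5.46, 6.02 and 6.99 in I30R60 hearts, against 4.17, 4.68 and 5.15 in IP0 hearts and 3.57, 3.71 and 4.53 in sham hearts (difference +1.45 ± 0.19, adjusted p = 0.00111). Fgl2, a prothrombinase of endothelium and macrophages, differed by +1.28 ± 0.13 without overlap (adjusted p = 0.000124). Plaur, the urokinase receptor, differed by +1.35 ± 0.22 with overlap (adjusted p = 0.00485). Ptx3, a pattern recognition protein, differed by +1.24 ± 0.29 (adjusted p = 0.0293) and was lost without any of 6 single arrays (adjusted p up to 0.0667). Ccn2, the growth factor also named Ctgf, did not pass (+0.19, 95% interval −0.02 to 0.39, adjusted p = 0.32) although it was +1.02 and +0.83 against sham in I30R60 and IP0 hearts.

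Antioxidant and metal-binding genes were higher in 5 of 19 cases and lower in none (median +0.19). Hmox1, the heme oxygenase, measured 7.24, 8.24 and 8.71 in I30R60 hearts, against 6.32, 6.88 and 7.38 in IP0 hearts and 5.61, 6.47 and 7.67 in sham hearts, with some overlap (difference +1.26 ± 0.23, adjusted p = 0.0082). The metallothioneins Mt2 (+0.66 ± 0.07, adjusted p = 0.000237) and Mt1 (+0.61 ± 0.07, adjusted p = 0.000675) did not overlap between the protocols, although Mt2 was not called with the group means of all 24 arrays (adjusted p = 0.07). Gpx1 (+0.39) and Txnrd1 (+0.42, adjusted p = 0.0212) were higher, and Txnrd1 was lost without Per2-/- IP0 replicate 2 (adjusted p = 0.0531). Ptgs2, the inducible cyclooxygenase, was the sole gene of 12 in the prostaglandin pathway to pass (8.3%, against 2.81% higher over all genes). It measured 8.23, 8.53 and 8.67 in I30R60 hearts, against 7.77, 8.02 and 8.26 in IP0 hearts and 5.62, 6.48 and 7.62 in sham hearts (difference +0.48 ± 0.11, adjusted p = 0.0229). The step from sham was larger than the step between the protocols, and the difference between the protocols was not called with all 24 arrays (adjusted p = 0.341) nor without Per2-/- I30R60 replicate 1, Per2-/- I30R60 replicate 3 or wt IP0 replicate 1 (adjusted p up to 0.0548).

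Extracellular adenosine protects the heart. Of the 9 measured genes that make, move or remove adenosine and its precursors, 3 were higher. The adenosine receptors Adora1, Adora2a, Adora2b and Adora3 were not measured. Entpd1, the CD39 ectonucleotidase that removes ATP and ADP, measured 8.02, 8.23 and 8.57 in I30R60 hearts, against 7.40, 7.60 and 7.74 in IP0 hearts and 7.69, 7.71 and 7.80 in sham hearts (difference +0.66 ± 0.08, adjusted p = 0.000755). Ampd3, which deaminates AMP, differed by +0.40 ± 0.07 (adjusted p = 0.0076). Ada, which destroys adenosine, differed by +0.86 ± 0.21 (adjusted p = 0.0341) and was lost without any of 8 single arrays (adjusted p up to 0.0774). The list median was −0.06. Among 24 targets of the hypoxia-inducible factors 1 passed and was higher (4.2%, against 2.81% over all genes). This was Pfkfb3, which makes the activator of glycolysis. It measured 7.12, 7.81 and 8.12 in I30R60 hearts, against 6.21, 6.60 and 6.78 in IP0 hearts and 5.64, 6.04 and 6.42 in sham hearts (difference +1.19 ± 0.13, adjusted p = 0.000337).

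Clock genes, to which Per2 belongs, included 6 of 18 that were higher and 2 that were lower (median +0.39). Arntl (BMAL1), the positive arm of the clock, measured 5.09, 5.45 and 7.32 in I30R60 hearts, against 6.06, 7.07 and 7.61 in IP0 hearts and 5.25, 6.31 and 6.65 in sham hearts (difference −1.19 ± 0.28, adjusted p = 0.03). Ciart, a clock repressor, measured 6.13, 7.04 and 7.63 in I30R60 hearts, against 5.44, 5.93 and 6.59 in IP0 hearts and 5.44, 5.80 and 6.24 in sham hearts (difference +1.02 ± 0.24, adjusted p = 0.0293). Both overlapped between the protocols, and each was lost without any of 7 single arrays (adjusted p up to 0.0705 and 0.0644). Bhlhe40, a repressor that hypoxia also induces, measured 8.19, 8.53 and 9.04 in I30R60 hearts, against 7.57, 7.77 and 8.02 in IP0 hearts and 7.10, 7.40 and 7.47 in sham hearts (difference +0.76 ± 0.13, adjusted p = 0.00504). Per2 itself measured 5.51, 6.12 and 6.71 in I30R60 hearts, against 4.66, 5.34 and 5.65 in IP0 hearts and 5.33, 5.67 and 6.10 in sham hearts. It did not pass (+0.80, 95% interval 0.31 to 1.29, adjusted p = 0.0615) but passed in 7 of 25 alternatives (adjusted p from 0.0115 to 0.128 over the 25), and it was +0.46 in Per2-/- and +1.14 in wt hearts. Tef (+0.59, lost without any of 8 single arrays, adjusted p up to 0.072), Nfil3, Bhlhe41 and Nr1d2 rose by +0.44 to +0.59, and Clock was lower (−0.27). According to the methods the mice lived in a light-dark cycle and the experiments were run at the same time of day, ZT 0.

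Genes that glucocorticoids induce went both ways, 4 of 15 higher and 3 lower. Cebpd, a C/EBP factor of the acute phase, measured 6.14, 6.63 and 7.01 in I30R60 hearts, against 5.39, 5.57 and 5.88 in IP0 hearts and 4.65, 4.98 and 5.25 in sham hearts (difference +0.99 ± 0.13, adjusted p = 0.000874). The others that rose, Lcn2, Mt2 and Mt1, also stand in lists above. Those that fell were Ddit4, Errfi1 and the kinase Sgk1 (−0.41).

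The metabolic and contractile genes of the muscle differed little. Of 25 subunits of oxidative phosphorylation none passed, and their differences lay between −0.22 and +0.06. None of 12 ventricular stress genes passed, and Nppb, the natriuretic peptide BNP, measured 10.02, 10.55 and 10.97 in I30R60 hearts, against 10.32, 10.66 and 11.12 in IP0 hearts and 9.48, 9.64 and 10.13 in sham hearts (difference −0.15, 95% interval −0.47 to 0.17, adjusted p = 0.636). Of 18 sarcomere and calcium handling genes Mybpc3 alone was lower, at −0.25 (adjusted p = 0.0352), and of 20 potassium and sodium channels Kcnj11, the pore of the ATP-sensitive potassium channel, at −0.33 ± 0.06 (adjusted p = 0.0115). These were 5.6% and 5.0% of their lists, against 2.11% lower over all genes. Kcnj11 measured 8.03, 8.13 and 8.26 in I30R60 hearts, against 8.32, 8.46 and 8.59 in IP0 hearts and 8.01, 8.13 and 8.40 in sham hearts. The I30R60 arrays lay within the sham range, and the IP0 arrays reached above it. Mybpc3 was lost without any of 9 single arrays (adjusted p up to 0.0791).

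In fatty acid oxidation and PPAR-alpha targets, 1 of 23 genes was higher and 1 lower (median −0.05). Each was 4.3% of the list, against 2.81% higher and 2.11% lower over all genes. Hadha, a subunit of the mitochondrial trifunctional protein, was lower by a difference of −0.23 ± 0.05 (adjusted p = 0.0265) and Angptl4, an inhibitor of lipoprotein lipase, was higher by +0.89 ± 0.23 (adjusted p = 0.0413). Both depended on single arrays, being lost without any of 6 and 9 of them (adjusted p up to 0.0623 and 0.0907). Ehhadh, a peroxisomal enzyme of fatty acid oxidation, measured 5.70, 6.23 and 6.63 in I30R60 hearts, against 5.53, 6.34 and 6.67 in IP0 hearts and 6.29, 6.99 and 7.81 in sham hearts (difference −0.05, 95% interval −0.38 to 0.27, adjusted p = 0.895). Ucp3, a mitochondrial carrier, differed by +0.21 (95% interval −0.35 to 0.77, adjusted p = 0.721). In glucose handling Irs2, an adaptor of the insulin receptor, was higher by +0.75 ± 0.11 (adjusted p = 0.00256). Pfkm, the muscle phosphofructokinase, measured 11.22, 11.32 and 11.40 in I30R60 hearts, against 11.56, 11.58 and 11.71 in IP0 hearts and 11.36, 11.38 and 11.45 in sham hearts (difference −0.29 ± 0.06, adjusted p = 0.0132). Gys1, glycogen synthase, was −0.25 ± 0.06 (adjusted p = 0.0458, lost without any of 11 single arrays, adjusted p up to 0.0961). Ppp1r3c, which targets phosphatase to glycogen, did not pass (−0.15, 95% interval −0.46 to 0.16, adjusted p = 0.635) and was +0.66 and +0.81 against sham in I30R60 and IP0 hearts.

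Several leading genes stood outside these groups. Sbno2, a helicase-like regulator downstream of IL-10 and STAT3, measured 8.04, 8.28 and 8.63 in I30R60 hearts, against 6.02, 6.65 and 6.88 in IP0 hearts and 6.02, 6.42 and 6.86 in sham hearts (difference +1.70 ± 0.15, adjusted p = 6.49e-05). Casp4, the caspase that senses lipopolysaccharide in the cytosol and opens gasdermin pores, measured 6.11, 6.53 and 6.90 in I30R60 hearts, against 4.54, 4.85 and 5.12 in IP0 hearts and 4.48, 4.78 and 4.91 in sham hearts (difference +1.67 ± 0.14, adjusted p = 3.52e-05). Sbno2 and Casp4 were alike in that IP0 hearts overlapped sham and I30R60 hearts stood far above both. Among 20 regulators of apoptosis and necroptosis Casp4 and Ripk3 (+0.40) passed, and Ripk3 was lost without Per2-/- IP0 replicate 1 (adjusted p = 0.0506). Slc5a3, the inositol transporter that salt stress induces, differed by +1.02 ± 0.19 (adjusted p = 0.00875), and Nts, the neurotensin precursor, by +0.81 ± 0.12 with overlap (adjusted p = 0.00195, and 0.0914 with the methods' t-test).

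The 8 genes that fell at least 2-fold were the 6 muscle microRNA genes, Arntl and, named after its values were seen, Adam19 (−1.09, with overlap). Amy1, an amylase, measured 5.07, 5.32 and 5.44 in I30R60 hearts, against 5.91, 6.09 and 6.25 in IP0 hearts and 4.93, 5.57 and 6.17 in sham hearts (difference −0.80 ± 0.07, adjusted p = 6.49e-05). Abat, the transaminase that breaks down GABA, differed by −0.74 ± 0.09 (adjusted p = 0.000533), and a weaker probe set of it gave −0.01. Miga2, which acts on fusion of mitochondria, measured 6.56, 6.87 and 7.12 in I30R60 hearts, against 7.33, 7.47 and 7.64 in IP0 hearts and 7.16, 7.35 and 7.56 in sham hearts (difference −0.63 ± 0.07, adjusted p = 0.000458). Here the IP0 arrays overlapped sham and the I30R60 arrays lay below both. Snord61 (−0.68), a guide of RNA methylation, Efnb3 (−0.64), a ligand of Eph receptors, and Gm10400 (−0.64) completed the 15 largest falls without overlap. Among 337 zinc finger genes with numbered Zfp symbols, a list made after the values were seen, 22 were lower (6.5%) and 3 higher (0.9%). Over all genes 2.11% were lower and 2.81% higher. The median of the list was −0.10, and its largest passing fall was −0.64 in Zfp961. Among 56 small nucleolar RNA genes, also listed afterwards, 6 were higher (10.7%) and 2 lower (3.6%), with a median of +0.02.

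The protocols were also compared within each genotype, with the error taken from all 12 arrays. In Per2-/- hearts 303 genes passed (1.61%), 221 of them higher (1.17%) and 82 lower (0.436%), and in wt hearts 113 passed (0.6%), 92 higher (0.489%) and 21 lower (0.112%). Without Per2-/- IP0 replicate 2 the first count was 93, and without wt IP0 replicate 3 the second was 31. A fit to the 6 arrays of a genotype alone gave 169 genes in Per2-/- and 5 in wt hearts. This inequality was not shown to be a difference between the genotypes, because no gene passed the test of the interaction in limma (0 of 18820, lowest adjusted p = 0.952), 896 genes (4.76%) had an unadjusted p under 0.05, and no gene passed in any alternative fit of it. Among the 30 leading genes 22 had the larger difference in Per2-/- hearts. The same count was not made over all genes, and genes are not replicates, so this is a description only. Selp was +3.53 in Per2-/- and +2.64 in wt hearts, Icam1 was +2.30 and +1.31, and Cxcl10 was +2.61 and +1.68. The 95% intervals of these interactions were −0.04 to 1.81, 0.01 to 1.96 and −0.30 to 2.17. Mir208a had the smallest unadjusted p of the interaction, 6.06e-05 in the limma fit, with −2.15 in Per2-/- and −0.92 in wt hearts, a difference of −1.23 (95% interval −1.68 to −0.79, adjusted p = 0.952). The next were Tas2r134, a bitter taste receptor at the bottom of the signal range (+0.61), Lonrf3 (+1.52), Igsf9b (−0.68) and Rab42 (−0.95), each at an adjusted p = 0.952.

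**Figure D5:**
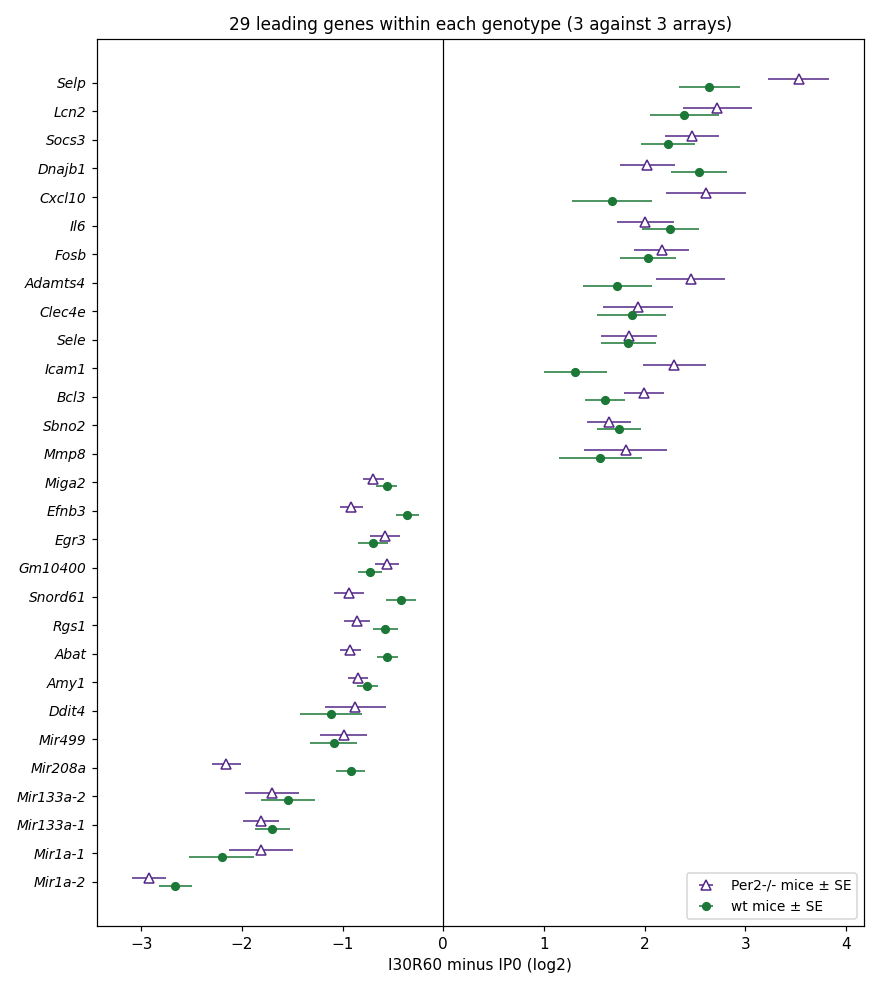
Difference between I30R60 and IP0 hearts (log2, ± SE) for 14 of the 15 largest rises and the 15 largest falls, within Per2-/- hearts (open triangles) and within wt hearts (filled circles), 3 against 3 arrays each. Both genotypes lie on the same side of 0 for all 29 genes shown, which were chosen on the difference pooled over genotypes, and Mir208a shows the widest gap relative to its error, −2.15 against −0.92.

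By median difference, marker genes of other cell types moved less than those of neutrophils (+0.68). The median was +0.32 for monocytes and macrophages, with 16 of 17 positive, and +0.23 for fibroblasts. All 9 smooth muscle markers were positive, with a median of +0.09. By the share that was higher, fibroblast markers (30.0%) were close to neutrophil markers (33.3%). None of 11 lymphocyte, 5 platelet, 2 red cell, 9 smooth muscle, 8 atrial and 7 adipocyte markers passed. Of 17 monocyte and macrophage markers C1qb (+0.52, adjusted p = 0.00111) and C1qa (+0.37), parts of complement C1q, were higher, and C1qb was −0.40 against sham in IP0 hearts (adjusted p = 0.0041) and +0.12 in I30R60 hearts. Of 10 fibroblast markers Postn (+0.61), Tcf21 (+0.52, adjusted p = 0.00902) and Col3a1 (+0.38) were higher. Of 11 endothelial markers Tie1 (+0.31) was higher and Kdr, the VEGF receptor, lower (−0.49 ± 0.13, adjusted p = 0.0419, lost without any of 9 single arrays, adjusted p up to 0.0945). The mean level of the endothelial markers was 8.66 to 8.95 in I30R60 hearts, against 8.76 to 8.91 in IP0 hearts and 8.83 to 8.99 in sham hearts, and that of the 9 ventricular muscle markers was 12.59 to 12.70, against 12.68 to 12.73 and 12.68 to 12.74. Wt1 (+0.70), of 6 mesothelial markers, and Scgb3a1 (+0.50), of 10 lung markers, also passed, while 5 of the mesothelial and 9 of the lung markers lay under the array median in I30R60 hearts. The part of cell numbers in the results above was not tested.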

How the data were processed

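The deposited table holds log2 values that the authors made by RMA normalisation in Partek software from the array scans, for 24 arrays and 35555 probe sets. In the platform annotation 21218 probe sets had 1 gene symbol, 1881 had several and 12456 were not listed. Those with 1 symbol were used, and where a gene had more than 1 probe set (1386 genes) the brightest on average in the 24 arrays stood for it, which left 18820 genes. No low values were removed. RMA brings the probes of all arrays to a common distribution and compresses differences of dim probe sets, and the values carry no detection call. Groups came from the labels.

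I30R60 was compared with IP0 in limma 3.58.1 (R 4.3.3) with the terms genotype and protocol over 12 arrays (lmFit and eBayes, 9 residual degrees of freedom, two-sided), and p-values were adjusted over 18820 genes by the Benjamini-Hochberg method at a threshold of 0.05. Differences within a genotype and the interaction came from the means of 4 groups over the same arrays, and differences from sham from group means over 24 arrays. The number of arrays limits the precision, and the median SE of a difference was 0.0927. Other models, scalings, probe set rules, filters and thresholds and the omission of each array in turn were tried.

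The comparison, the members and the gene lists were chosen with earlier results of these data known, so counts over lists are descriptions. Named genes were the 15 largest differences in each direction without overlap, up to 4 members of a list, genes the study names, the 5 smallest p-values of the interaction and microRNA genes with a mature sequence in the reference. Further list members and Myh7b, Aopep, Adam19 and Zfp961 were picked after their values were seen. Of the 15 largest rises 1 is not reported here. The scripts were tested on simulated data.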

Additional observations from a re-analysis of the deposited data

Results flagged for a closer look

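In 244 sets of 6 arrays (122 genes in each protocol), 10 had 1 array far from the other 5 by Dixon's gap test, and chance alone gives such a gap in about 1 of 20 sets. Per2-/- I30R60 replicate 1 was the highest I30R60 array for Selp (8.08, others 6.98 to 7.31), for Fosb (11.41, others 10.35 to 10.62) and for Dnaja1 (9.29, others 8.72 to 8.91). Per2-/- I30R60 replicate 3 was the lowest for Rab42 (3.02, others 3.24 to 3.33). Among IP0 arrays, wt replicate 3 was the lowest for Irf1 (6.98, others 7.38 to 7.47) and Gadd45a (5.86, others 6.28 to 6.38), and wt replicate 1 for Maff (5.79, others 6.30 to 6.59) and Adamts9 (8.79, others 9.01 to 9.09). Wt IP0 replicate 2 was the highest for Myc (8.13, others 7.38 to 7.60) and Per2-/- IP0 replicate 1 for Nr4a1 (11, others 10.60 to 10.75). The calls of Selp, Fosb, Dnaja1, Irf1, Gadd45a, Maff, Adamts9 and Myc held without each of the 12 arrays in turn.

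Probe sets that name no single gene were fitted apart. Of 1881 with several symbols, 38 differed between I30R60 and IP0 hearts (2.02%, 29 higher and 9 lower), and of 12456 that were not listed, 117 differed (0.939%, 68 higher and 49 lower).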

How the results depend on the processing

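The count of lower genes was 397, against 704 with group means over all 24 arrays, 718 with trend and robust moderation, 757 with arrays centred on their median and 853 when only genes with a mean of at least 5 were tested, a setting that left 4 genes at least 2-fold lower in place of 8. At adjusted p thresholds of 0.01 and 0.1, 223 and 793 genes were higher and 63 and 792 lower, and at 1.5-fold 250 were higher and 31 lower. A fit to the 6 arrays of 1 genotype alone gave 169 genes in Per2-/- and 5 in wt hearts. Without 1 array the counts ran from 360 to 522 higher and 186 to 336 lower, from 57 to 87 and from 6 to 9 at least 2-fold higher and lower, from 93 to 336 in Per2-/- hearts, from 31 to 124 in wt hearts, and stayed at 0 for the interaction. The lowest values came without Per2-/- IP0 replicate 2 (higher, lower, Per2-/- hearts), wt IP0 replicate 3 (wt hearts), Per2-/- I30R60 replicate 1 (2-fold higher) and wt IP0 replicate 2 (2-fold lower). The methods' t-test with Benjamini-Hochberg adjustment gave 359 higher and 414 lower. Differences that did not pass the test changed sign in 3 genes. Tas2r134 was −0.037 with arrays centred on their median and ran from −0.0526 to 0.0577 without 1 array. Nr4a2 ran from −0.133 to 0.0318 and Ehhadh from −0.163 to 0.0321 without 1 array. The causes were not tested. Whether replicate numbers pair the arrays was not settled. In 0 of 6 pairs of groups did every same-numbered pair correlate above 0.1 (mean 0.0275), but 9 of 12 arrays correlated best with one of their own number. The mean for other numbers, −0.0136, follows from centring each gene within its group of 3 arrays and is no separate measure. With the replicate number as a block 474 genes were higher and 314 lower, and 11 of the genes named lost their call: Vcam1, Ccl17, Nr4a3, Klf4, Klf6, Dusp1, Dusp16, Ppp1r15a, Angptl4, Gys1 and Mybpc3. Levels well under the array medians, such as those of Mir1a-1, Mir1a-2 and Mir499 in I30R60 hearts, limit what can be measured there.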
